A study of Homo sapiens with 8 samples.

Results

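The ephrins and their Eph receptors were described here as a set of 10 genes, the ligand genes *EFNA5*, *EFNA1*, *EFNA4*, *EFNB1* and *EFNB2* and the receptor genes *EPHA2*, *EPHA4*, *EPHB2*, *EPHB3* and *EPHB4*. They are 10 of the 20056 protein-coding genes in the RefSeq gene table. Each gene was taken with the 20 kb on either side of it, and the deposited H3K27ac peaks that touched this window gave 26 of the 18678 regions formed by merging the peaks of both cell lines. The set was chosen by gene name with the measured peak intervals and signals already known, and it was defined by the pattern at *EFNA5*, whose promoter window held a region only in the control line. That pattern and the counts at the other members are therefore given as a description, with no test.

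The cells were MIA PaCa-2, an established line from a human pancreatic carcinoma. MP2_HDAC1_OE cells carried lentiMPHv2 and lentiSAMv2 with an sgRNA to *HDAC1*, a CRISPR activation system that raises transcription of the endogenous gene. MP2_NTC cells carried the same 2 lentiviral constructs with a non-targeting sgRNA, so the activator components were common to both lines. *HDAC1* encodes a histone deacetylase, and chromatin immunoprecipitation with sequencing was performed for H3K27ac, an acetyl mark of active promoters and enhancers that such enzymes can remove. Each line had 2 H3K27ac samples and 2 control samples without the H3K27ac antibody, and 1 peak list was deposited per line, pooled over its samples. No value below is thus available per replicate, and an effect of the guide cannot be told apart from another difference between the lines.

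Ephrins are ligands that stay attached to the cell surface. Those of the A class are held by a lipid anchor, and those of the B class cross the membrane. Eph receptors are receptor tyrosine kinases of the neighbouring cell, and contact can signal into both cells, which guides cell sorting, migration and boundary formation. In epithelia the system is known for its part in adhesion and motility.

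The MP2_HDAC1_OE list held 25045 peaks with signals from 11 to 185, and the MP2_NTC list held 22569 peaks with signals from 11.7 to 220. The signal is the strength value that the list gives to a peak, and how it was scaled between the lists is not given in the sources used here. A peak was therefore compared between lines by its rank, the percent of peaks of its own list that had a lower signal, and a difference of ranks is given in percentile points. A region was called unique to a line when all its peaks came from that line's list, and shared when both lists contributed. A region that is missing from a list had no peak that passed the authors' reproducibility threshold, which does not show that the mark was absent, and the sequencing depth behind the lists is unknown. The promoter window of *HDAC1*, from 2 kb upstream to 1 kb downstream of its start, reached rank 93.9 in MP2_HDAC1_OE and 45.2 in MP2_NTC. This window, and those of *KRT18* and *VIM* below, held 2 regions each, of which 1 was shared. The ranks of the lines at these genes may thus come from different regions. Of 5 epithelial markers, *KRT18* had promoter peaks in both lists at ranks of 61.1 in MP2_HDAC1_OE and 76.2 in MP2_NTC, *KRT19* at 42.8 and 6.86 in regions that did not overlap, *KRT8* only in MP2_HDAC1_OE at 50.5, and *EPCAM* and *CDH1* in neither, while the mesenchymal marker *VIM* had promoter peaks in both at ranks 86.2 and 69.1.

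Of the 26 regions at ephrin and Eph genes, MP2_HDAC1_OE alone held 9 (34.6%), MP2_NTC alone held 5 (19.2%), and both lists held the remaining 12 (46.2%). Among all 18678 regions the corresponding shares were 28.6%, 20.7% and 50.7%, so the set lay near the composition of the lists as a whole. Only 6 of the 10 genes had a region, and 63.1% of coding genes did. A region unique to MP2_HDAC1_OE lay at 5 genes and one unique to MP2_NTC at 4 genes, against 26.3% and 23.4% of coding genes, while the median gene length was 28.3 kb in the set and 24.1 kb over all coding genes. The promoter window held a region at 6 of the 10 genes, compared with 47.4% of coding genes. It held regions of MP2_HDAC1_OE alone at 1 gene, *EFNA4*, and of MP2_NTC alone at 1 gene, *EFNA5*, where the shares over all coding genes were 6.18% and 5.24%.

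**Figure D1:**
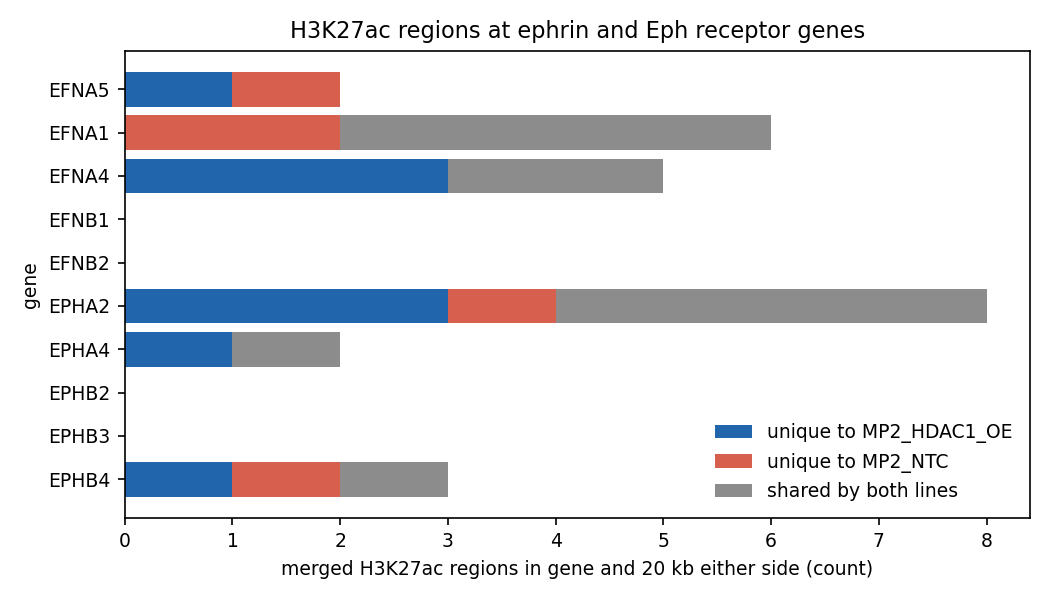
Count of merged H3K27ac regions in each gene and the 20 kb on either side (x axis, regions), by gene (y axis), with bar segments for regions unique to MP2_HDAC1_OE, unique to MP2_NTC and shared. *EPHA2* had 8 regions, *EFNA5* had 1 unique to each line and none shared, and *EFNB1*, *EFNB2*, *EPHB2* and *EPHB3* had none.

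By class, a region was found at all 5 A class genes of the set, in the promoter window as well, and at 1 of the 5 B class genes. Over all 22 ephrin and Eph genes, counting the 12 that were not members, 9 of 14 A class genes and 2 of 8 B class genes had a region, beside the 63.1% of coding genes. *EFNA3* entered this count through regions also counted at *EFNA4*. In the promoter window, 5 of the 14 A class and 2 of the 8 B class genes had a region, beside 47.4% of coding genes. The classes were compared after the values were seen, and their difference was not tested.

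*EFNA5* encodes an A class ligand best known from axon guidance. The gene (chr5:107376894-107670937, minus strand, hg38) is 294 kb long, and its 2 regions both lay upstream of its start. In MP2_NTC, 1 peak spanned chr5:107671212-107672031, from 275 bp upstream of the start outward, with a signal of 35.7 and rank 24.8. In MP2_HDAC1_OE, 1 peak spanned chr5:107673151-107673970, from 2214 bp upstream, with a signal of 53.6 and rank 62.8. The intervals were separated by 1119 bp without overlap, and both peaks were 820 bp wide. The MP2_HDAC1_OE peak thus lay just beyond the 2 kb limit of the promoter window. With a limit of 3 kb, chosen after the values were seen, both lines had a region upstream of *EFNA5*. The control peak stood in the lower part of its list, and when only the top 75% of each list was kept, no promoter region remained at this gene. No peak lay in the 294 kb of the gene itself, and the next region outside the window was 710 kb away.

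The promoter sequences below, from RefSeq (GRCh38.p14), cover the 250 bases before the gene start and are written 5′ to 3′ on the strand of the gene. They are shown for the ligand genes because *EFNA5* had a promoter region only in MP2_NTC, *EFNA4* only in MP2_HDAC1_OE, *EFNA1* in both lines and *EFNB2* in neither. Capitals mark the GC box, GGGCGG on either strand (CCGCCC in reverse). The bases shown are chr5:107670938-107671187 (minus) for *EFNA5*, chr1:155063490-155063739 (plus) for *EFNA4*, chr1:155127626-155127875 (plus) for *EFNA1* and chr13:106535663-106535912 (minus) for *EFNB2*.
EFNA5: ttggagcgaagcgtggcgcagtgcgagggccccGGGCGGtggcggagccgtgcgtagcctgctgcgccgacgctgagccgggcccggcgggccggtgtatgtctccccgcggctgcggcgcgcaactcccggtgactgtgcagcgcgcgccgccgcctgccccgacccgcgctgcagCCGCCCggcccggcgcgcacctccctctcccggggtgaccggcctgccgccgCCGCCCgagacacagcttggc
EFNA4: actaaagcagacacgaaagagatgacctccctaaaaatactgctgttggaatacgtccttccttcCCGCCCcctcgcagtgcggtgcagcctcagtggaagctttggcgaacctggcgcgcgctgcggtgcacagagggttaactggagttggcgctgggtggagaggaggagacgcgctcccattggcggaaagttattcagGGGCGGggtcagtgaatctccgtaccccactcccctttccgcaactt
EFNA1: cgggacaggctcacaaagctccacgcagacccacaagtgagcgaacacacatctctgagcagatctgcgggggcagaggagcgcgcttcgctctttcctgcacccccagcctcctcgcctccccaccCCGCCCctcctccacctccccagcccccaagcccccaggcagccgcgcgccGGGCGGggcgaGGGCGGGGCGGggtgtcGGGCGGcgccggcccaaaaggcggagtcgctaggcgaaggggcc
EFNB2: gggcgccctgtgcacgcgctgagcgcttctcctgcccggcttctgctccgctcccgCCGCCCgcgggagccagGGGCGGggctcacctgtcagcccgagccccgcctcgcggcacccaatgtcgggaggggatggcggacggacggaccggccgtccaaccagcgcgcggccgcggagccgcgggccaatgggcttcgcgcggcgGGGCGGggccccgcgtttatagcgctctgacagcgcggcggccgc

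None of the 250 bases shown for *EFNA5* lay in a region, and the MP2_NTC region began 24 bp beyond them. At *EFNA4* 21 of the bases lay in the region unique to MP2_HDAC1_OE, and at *EFNA1* all 250 lay in a shared region. At *EFNB2* the nearest region was 31842 bp from the sequence. The *EFNA5* sequence had a GC content of 79.6% and 41 CpG dinucleotides, more than 97.8% of the 15840 promoters in the reference table, whose medians were 62.4% and 17. *EFNB2*, with no region in either list, had a similar sequence of 78.4% GC and 40 CpG, whereas *EFNA4* had 58.4% and 17.

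*EFNA5* was not alone in its counts, since 288 coding genes (1.44%), itself included, had 1 region unique to each line and none shared. The 3 others whose MP2_NTC peak was nearest in rank to that of *EFNA5* were *PKNOX2*, *RPL37A* and *MKI67*. *PKNOX2*, a homeobox gene, had ranks of 36.8 in MP2_HDAC1_OE and 24.9 in MP2_NTC, with 148 kb between its regions. *RPL37A*, a ribosomal protein gene, had ranks of 26.7 and 24.6, with 0.191 kb between them. *MKI67*, the proliferation marker Ki-67, had ranks of 40.1 and 25.1, with 9.54 kb between them.

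**Figure D2:**
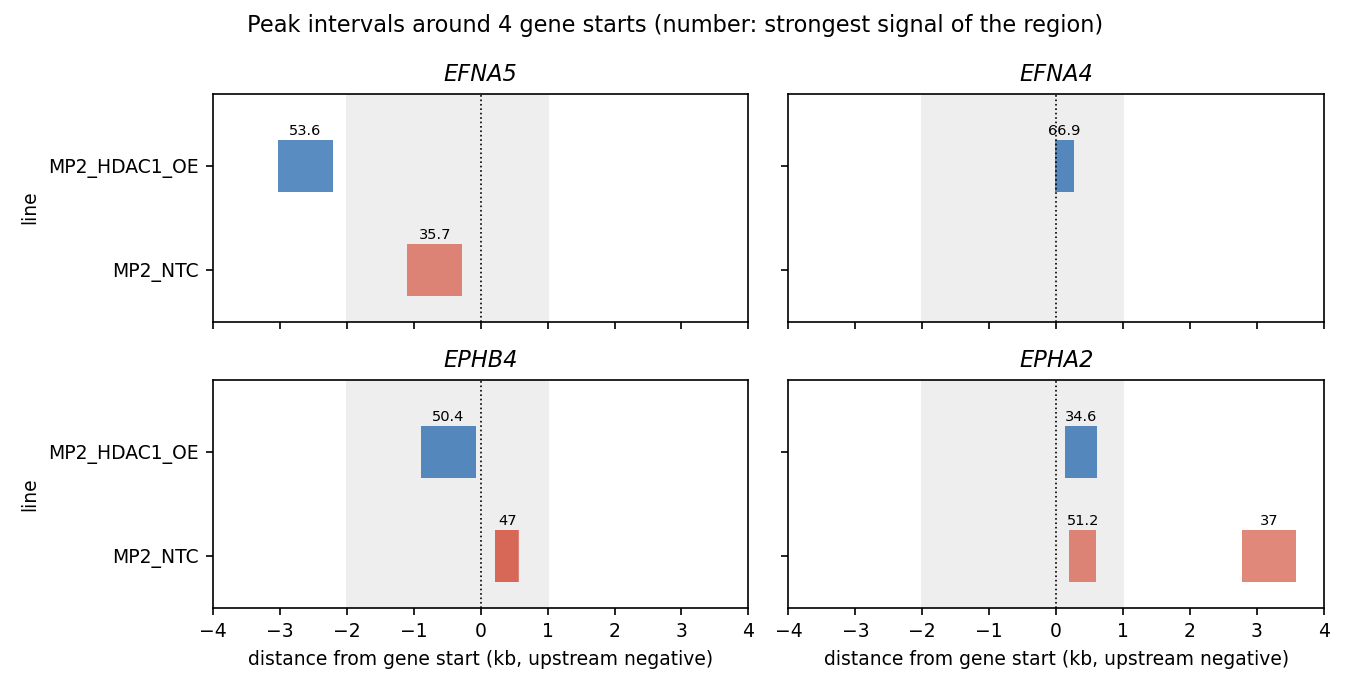
Peak intervals within 4 kb of the start of *EFNA5*, *EFNA4*, *EPHB4* and *EPHA2* (x axis, kb from the gene start, upstream negative) in each line (y axis). The shaded band is the promoter window, the printed number is the strongest signal of the region, and a darker colour marks overlapping peaks. The lines' intervals did not overlap at *EFNA5* and *EPHB4*, *EFNA4* had an interval in MP2_HDAC1_OE alone, and *EPHA2* had promoter intervals in both lines.

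*EFNA4* and *EFNA1*, both A class ligand genes, lie close together on chromosome 1 with *EFNA3* between them. Their windows differed in the line that held the unique and the higher ranked regions, but most of these regions lay nearer to another coding gene. At the starts themselves, *EFNA4* had a region of MP2_HDAC1_OE alone and *EFNA1* a shared region. *EFNA4* (chr1:155063740-155069553, plus strand, 5.81 kb) had 5 regions, made of 7 peaks covering 3.33 kb in MP2_HDAC1_OE and 3 peaks covering 1.74 kb in MP2_NTC. The region at its start, chr1:155063719-155064014, was unique to MP2_HDAC1_OE with a signal of 66.9 and rank 79.1. It also overlapped the non-coding genes *DCST1-AS1* and *ADAM15-EFNA4*, a read-through transcript. A further region unique to MP2_HDAC1_OE, chr1:155045543-155046362 in *DCST1*, lay 17.4 kb upstream at rank 6.68, near the bottom of the list. The third, chr1:155084900-155085250 with rank 73.2, lay in *EFNA3*, 21.2 kb downstream of the *EFNA4* start. It became part of the shared region beside it, chr1:155085460-155086416, when gaps of up to 500 bp were joined.

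The shared regions of *EFNA4* ranked higher in MP2_HDAC1_OE. The first, chr1:155050775-155051823, lay 11.9 kb upstream of the *EFNA4* start and overlapped *DCST1* and *ADAM15*. Its signal was 68.9 in MP2_HDAC1_OE and 17.6 in MP2_NTC, with ranks of 80.8 and 5.81, a difference of 75 points. Only 0.274% of all shared regions differed by more in this direction. The strongest summits were 425 bp apart. A lower MP2_HDAC1_OE peak, with its summit 8 bp from that of MP2_NTC, had a signal of 55.8 and rank 66, which gave a difference of 60.2 points. The other, chr1:155085460-155086416, lay in *EFNA3*, 21.7 kb downstream of the *EFNA4* start. Its signal was 103 in MP2_HDAC1_OE and 48.1 in MP2_NTC, with ranks of 96.8 and 47.8 and summits 14 bp apart. This difference of 49 points was exceeded by 3.28% of shared regions.

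*EFNA1* (chr1:155127876-155134899, plus strand, 7.02 kb) encodes a ligand of EPHA2 and had 6 regions, of which 2 were unique to MP2_NTC, 4 were shared and none was unique to MP2_HDAC1_OE. The shared region at its start, chr1:155127214-155128575, had a signal of 55.2 in MP2_HDAC1_OE and 66.3 in MP2_NTC, with ranks of 65.1 and 73.6. A region within the gene, chr1:155129315-155130572, was unique to MP2_NTC with 2 peaks, the stronger at a signal of 46.5 and rank 44.8. The other unique region, chr1:155135850-155136236 with a signal of 49.8 and rank 50.6, lay past the gene's end at *SLC50A1*, which encodes a sugar transporter. It lay between 2 shared regions, and it became part of a shared region when gaps of up to 500 bp were joined.

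The other shared regions of *EFNA1* lay past its end, nearer to other genes. At *SLC50A1*, chr1:155135239-155135815 had ranks of 68.4 in MP2_HDAC1_OE and 85.5 in MP2_NTC, and chr1:155136299-155137118 had ranks of 55 and 62.9. At *DPM3*, a gene of dolichol-phosphate mannose synthesis, chr1:155139938-155140788 had ranks of 91.9 and 96.1. The rank of the strongest peak was thus lower in MP2_HDAC1_OE at all 4 shared regions of *EFNA1*. The differences lay between -17.1 and -4.13 points, and none reached 20 points in size. With ranks taken over non-overlapping intervals, the difference at chr1:155135239-155135815 was -21.7 points. Between nearest summits, the difference at the *DPM3* region was -20.5 points.

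*EFNB1* and *EFNB2*, the transmembrane ligand genes of the set, had no region in either list. The nearest region to *EFNB1* was 323 kb away and unique to MP2_NTC, at rank 51. That nearest to *EFNB2*, the ligand of EPHB4 in arterial development, was 32.1 kb away and shared, at ranks 73.4 in MP2_HDAC1_OE and 71.7 in MP2_NTC.

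*EPHA2*, a receptor for A class ligands that is often abundant in epithelial tumours, had 8 regions, the highest count of the set. The gene (chr1:16124337-16156069, minus strand) is 31.7 kb long. Its regions comprised 12 peaks covering 5.98 kb in MP2_HDAC1_OE and 7 peaks covering 3.25 kb in MP2_NTC. At the promoter, the shared region chr1:16155454-16155943 overlapped the non-coding gene *EPHA2-AS1* and had a signal of 34.6 in MP2_HDAC1_OE and 51.2 in MP2_NTC. Its ranks were 26.8 and 53.3, and 10.1% of shared regions had a lower difference than these -26.5 points.

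Within *EPHA2* every region was unique to 1 line except that at the promoter. Those unique to MP2_HDAC1_OE were chr1:16150542-16151361 with a signal of 42.2 and rank 41.5, chr1:16146314-16147724 with 38.6 and rank 33.7, and chr1:16139019-16139838 with 49.3 and rank 55.3. They began 4.71 kb, 8.35 kb and 16.2 kb downstream of the start. The region unique to MP2_NTC, chr1:16152477-16153296 with a signal of 37 and rank 26.9, began 2.77 kb downstream, between the promoter and the 3 regions of the other line. It was 1115 bp from the nearest of them.

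Upstream of *EPHA2* the 3 regions were shared. At chr1:16167158-16167933, 11.1 kb upstream, the ranks were 90.7 in MP2_HDAC1_OE and 88.9 in MP2_NTC. At chr1:16175682-16176528, 19.6 kb upstream and the last inside the 20 kb limit, they were 57.6 and 59.3, while the next region outside was 25.1 kb from the gene, unique to MP2_HDAC1_OE at rank 60.2. Between them, at chr1:16172784-16174216, the signal was 11.4 in MP2_HDAC1_OE and 62.1 in MP2_NTC. This MP2_HDAC1_OE peak was among the weakest of its list at rank 0.355, against 68.9 in MP2_NTC, with summits 202 bp apart. The difference of -68.5 points was lower at 0.369% of shared regions.

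*EPHA4*, a receptor that binds ligands of both classes, had 2 regions. The gene (chr2:221418027-221574202, minus strand) is 156 kb long. Its promoter region, chr2:221573057-221573876, was shared, with a signal of 45.3 and rank 47.8 in MP2_HDAC1_OE and 75.7 and rank 81.8 in MP2_NTC. A lower difference than these -34 points was found at 6.35% of shared regions. A region unique to MP2_HDAC1_OE, chr2:221527211-221528030 with a signal of 39.1 and rank 34.8, lay 46.2 kb into the gene. The next region outside was 883 kb away.

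*EPHB4*, the receptor of EFNB2, had regions of both lines on opposite sides of its start. The gene (chr7:100802565-100827523, minus strand, 25 kb) overlaps with its start that of *SLC12A9*, a gene of the cation-chloride cotransporter family on the opposite strand. The MP2_NTC region chr7:100826950-100827303 began 220 bp downstream of the *EPHB4* start and held 2 peaks with signals of 47 and 38.5 and ranks of 45.7 and 29.6. The MP2_HDAC1_OE region chr7:100827596-100828415 began 73 bp upstream, with a signal of 50.4 and rank 57.4. The gap between them was 292 bp, so that they became 1 shared region when gaps of up to 500 bp were joined. Both overlapped *SLC12A9*, and acetylation of the 2 genes cannot be told apart here.

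The *EPHB4* promoter sequence (chr7:100827524-100827773, minus strand) is shown because it lies at this divide. Of its 250 bases, 178 were in the MP2_HDAC1_OE region, and its capitals again mark the GC box, present 4 times.
EPHB4: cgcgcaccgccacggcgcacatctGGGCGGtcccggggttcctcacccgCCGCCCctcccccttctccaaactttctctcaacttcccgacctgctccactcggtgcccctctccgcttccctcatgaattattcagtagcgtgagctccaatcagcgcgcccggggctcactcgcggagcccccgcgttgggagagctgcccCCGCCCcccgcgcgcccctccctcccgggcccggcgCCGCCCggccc

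Further upstream of *EPHB4*, at 9.33 kb, the shared region chr7:100836857-100838359 had ranks of 65.9 in MP2_HDAC1_OE and 73.3 in MP2_NTC, a difference of -7.37 points between strongest peaks. Their summits were 449 bp apart. Where the summits of the lines nearly coincided, 26 bp apart, the signals were 22.6 and 66.1 and the ranks 12.9 and 73.3, a difference of -60.4 points. Like the regions at the start, this region overlapped *SLC12A9*, and it also overlapped *SLC12A9-AS1*. Its acetylation likewise cannot be told apart between *EPHB4* and *SLC12A9*. The next region outside the 20 kb limit was 24.5 kb from *EPHB4*, unique to MP2_NTC at rank 3.82.

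*EPHB2* and *EPHB3*, receptors known from the positioning of cells along the intestinal crypt, had no region in either list. The nearest to *EPHB2* was 97.9 kb away and shared, with ranks of 88.6 in MP2_HDAC1_OE and 41.7 in MP2_NTC. The nearest to *EPHB3* was 129 kb away and shared, with ranks of 79.1 and 95.9.

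**Figure D3:**
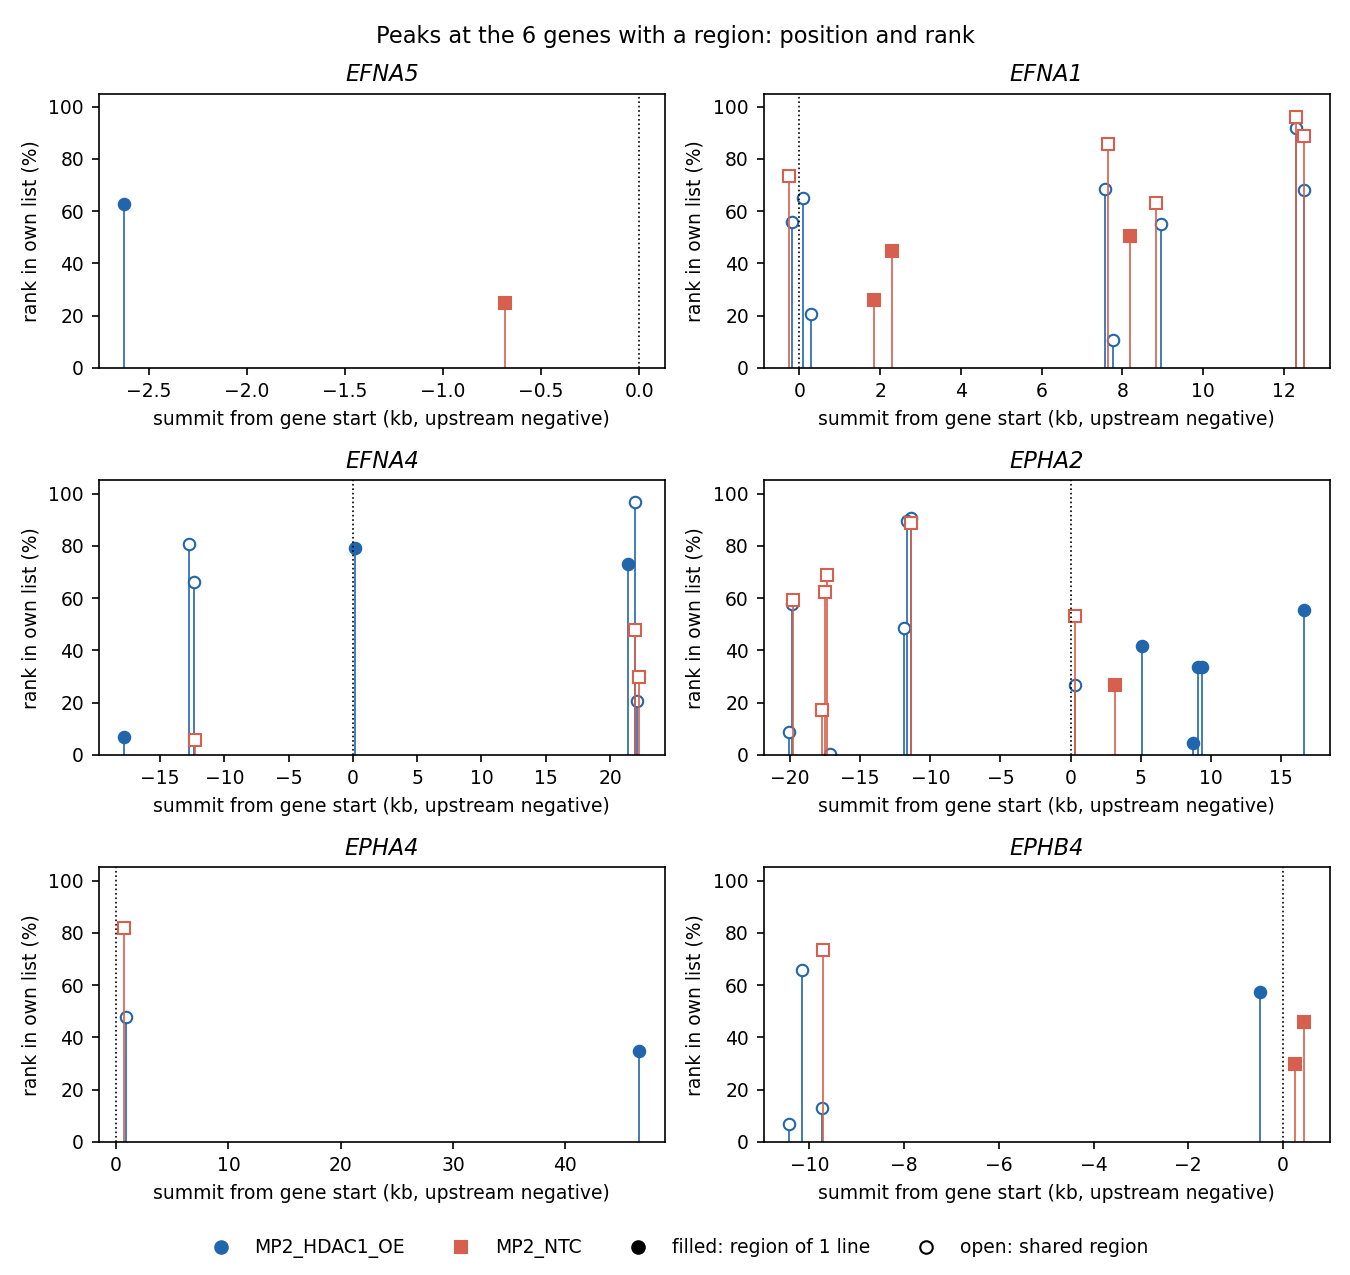
Rank of each peak in its own list (y axis, percent) against the distance of its summit from the gene start (x axis, kb, upstream negative) at the 6 genes with a region. Circles are MP2_HDAC1_OE and squares MP2_NTC, filled for regions of 1 line and open for shared regions. Filled circles lie in the body of *EPHA2* and *EPHA4*, filled squares downstream of the *EFNA1* start, and the strongest circle ranks above the strongest square in both shared regions of *EFNA4*.

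By position, the promoter windows of the members held 7 regions, with 2 unique to each line and 3 shared. Over all coding genes, 64% of the regions in promoter windows were shared, each counted once for every gene it lay at. The gene bodies outside these windows held 6 regions, 4 unique to MP2_HDAC1_OE, 2 unique to MP2_NTC and none shared, where 34% were shared over all coding genes. The flanks held 13 regions, of which 9 were shared, where the share over all coding genes was 53.6%. Shared regions were thus also the least frequent in gene bodies over all coding genes. Over all positions, 9 of the 26 regions lay nearer to an end of another coding gene than to one of the member. These were regions of *EFNA4*, *EFNA1* and *EPHB4*, and the share over all coding genes was not computed.

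At the 12 shared regions the rank was at least 20 points higher in MP2_HDAC1_OE at 2, both at *EFNA4*, and at least 20 points higher in MP2_NTC at 3, at *EPHA2* and *EPHA4*. Over all 9477 shared regions these shares were 19.7% and 14.7%. The median difference was -7.7 points at the members and 1.5 points over all shared regions, of which the central 90% ran from -37.6 to 42.7. With ranks taken over non-overlapping intervals, 4 shared regions ranked at least 20 points higher in MP2_NTC, 1 of *EFNA1* being added. With the pair of nearest summits in place of the strongest peaks, a choice made after the values were seen, 5 did so. Here the last of *EFNA1* and that upstream of *EPHB4* were added.

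**Figure D4:**
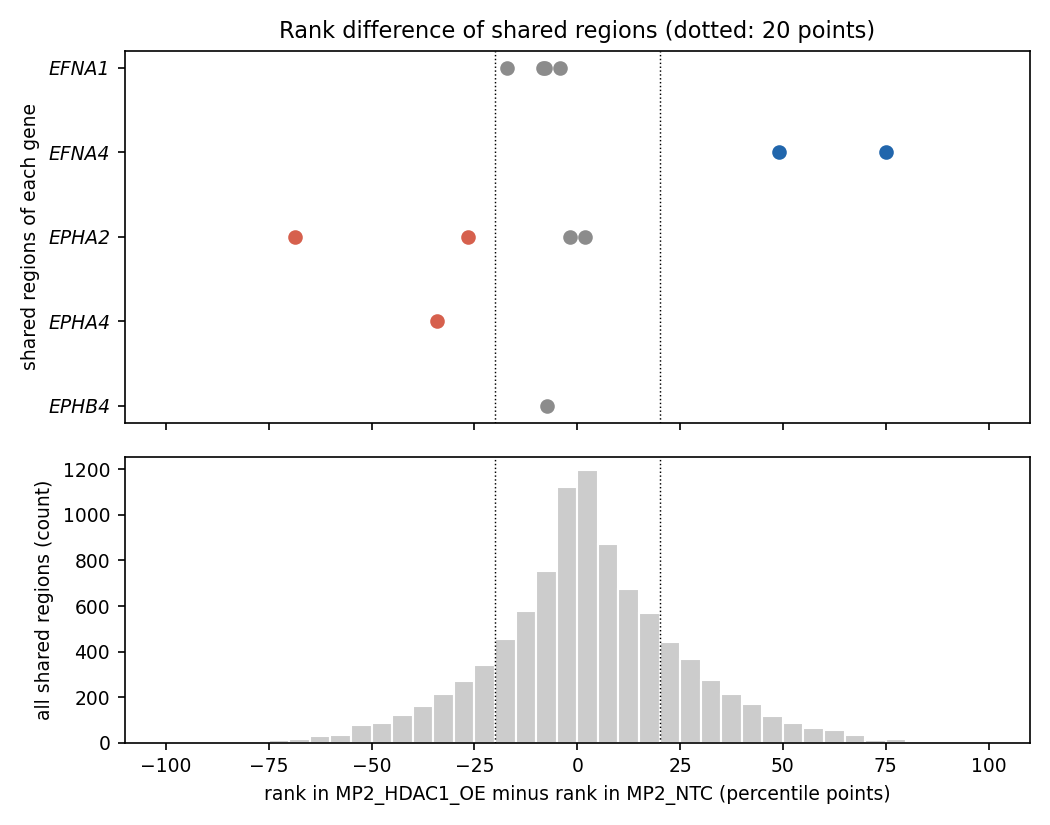
Rank in MP2_HDAC1_OE minus rank in MP2_NTC (x axis, percentile points) for the shared regions of each gene (upper panel, 1 point per region) and for all shared regions (lower panel, count). The dotted lines mark 20 points either way. Both *EFNA4* regions lie to the right of the lines, 2 *EPHA2* regions and 1 *EPHA4* region to the left, and the *EFNA1* regions between them.

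The promoters of the members were searched for short motifs on both strands in the 250 bases before the start. The GC box GGGCGG was found in 10 of 10 members and in 56% of the 15840 promoters. The AP-1 motif TGANTCA was in none of the members and in 5.04% of promoters, and the E-box CACGTG in none and 7.84%. The CRE motif TGACGTCA was found at *EPHA2* alone (2.32% of promoters) and TATAAA at *EFNB2* alone (9.24%). The GC content ranged from 43.2% at *EPHA4* to 84.8% at *EPHB2*, with 8 members above the median of all promoters. All members without a region lay above this median, as did *EFNA5*, *EFNA1*, *EPHA2* and *EPHB4*, which had regions. The members below it, *EFNA4* at 58.4% and *EPHA4*, both had regions.

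Among the 12 ephrin and Eph genes that were not members, 5 had a region, 4 had one unique to MP2_HDAC1_OE and 1 had one unique to MP2_NTC. Over all coding genes the shares were 63.1%, 26.3% and 23.4%. Only *EFNB3*, a transmembrane ligand gene, had a region in the promoter window, against 47.4% of coding genes. This region was unique to MP2_HDAC1_OE, with a signal of 53.3 and rank 62.3. Promoter regions of MP2_HDAC1_OE alone were found at 6.18% of coding genes. The strand of *EFNB3* was not in the table used, so either end of the gene counted as a start. The 3 regions of *EFNA3* were those described at *EFNA4*.

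Of 40 genes whose products act in Eph signalling, such as adaptors, Src family kinases and sheddases, 30 had a region, 11 had one unique to MP2_HDAC1_OE and 14 had one unique to MP2_NTC. The shares over all coding genes were 63.1%, 26.3% and 23.4%. Their promoter windows held a region at 23 genes, against 47.4% of coding genes, and at 20 of these both lines were represented. Promoter regions of MP2_NTC alone were found at *CRK*, an SH2 and SH3 adaptor, with a signal of 88.5 and rank 89.5, and at *PIK3R1*, the regulatory subunit of phosphoinositide 3-kinase, with 87.6 and rank 88.9. Both ranked far above the *EFNA5* promoter peak. Only *PTPN1*, a tyrosine phosphatase, had promoter regions of MP2_HDAC1_OE alone, with a signal of 41.6 and rank 40. Among all coding genes, 5.24% had promoter regions of MP2_NTC alone and 6.18% of MP2_HDAC1_OE alone. *ADAM10*, a metalloprotease that cleaves ephrins, had a promoter region of each line without overlap, with ranks of 74.4 in MP2_HDAC1_OE and 20.2 in MP2_NTC. *ROCK1*, a serine/threonine kinase, had a promoter region unique to MP2_HDAC1_OE at rank 21.3 beside a shared one.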

How the data were processed

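H3K27ac ChIP-seq was compared between MP2_HDAC1_OE and MP2_NTC cells, each with 2 H3K27ac and 2 control samples. The authors deposited 1 peak list per line, an optimal set from irreproducible discovery rate analysis of both samples, with a signal value and a summit offset (unit: other) per peak. The submitters' processing notes name hg38, BWA 0.7.12 and Picard 1.88. The peak caller and its settings are not given in the sources used here.

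Peaks that shared 1 bp were merged into regions (Python 3.11.15, pandas 2.3.3) and assigned to a gene within 20 kb. Genes, strands and promoters came from RefSeq. The promoter window ran from 2 kb upstream to 1 kb downstream of the start, and both ends were used for the 4214 coding genes without a strand. Read-through genes were left out as neighbours. No test was possible with 1 list per line. The members and gene lists were chosen with earlier results of these data known. Named were the members, listed genes with a line-specific promoter region, the 3 genes nearest to *EFNA5*, and the neighbours of regions. The cell type markers were chosen after the files were seen. On simulated sites with at most 1 peak per line, the merging put 1874 of 1874 regions in the right class. This checks the code only, since real regions can hold several peaks of a line.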

Additional observations from a re-analysis of the deposited data

How the results depend on the processing

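Of 49 values under other settings, over 8 results, 37 stayed within 1.5 times the reported count and 12 did not. Shared regions at the members numbered 25 when peaks were matched singly over 50% of both, 5 with 5 kb on either side and 20 with 50 kb. Regions unique to MP2_HDAC1_OE numbered 21 with single peaks and 16 with 50 kb, and those unique to MP2_NTC 11 and 8, or 3 with gaps of up to 500 bp joined. With the top 75% of peaks, 1 shared region ranked higher in MP2_HDAC1_OE, because the MP2_NTC peak of the other, at rank 5.81, was cut. With the same setting, 0 members had promoter regions only of MP2_NTC. The latter count was also 0 with 3 kb upstream, and 5 shared regions ranked higher in MP2_NTC with nearest summits, both settings chosen after seeing the data. Single-peak matching counts more items by construction, and a wider or narrower flank takes in more or fewer regions. No paired analysis was possible because the samples of a line were pooled into 1 list, and leaving out a replicate could not be done either. The depth is unknown, so a peak missing from a list may be weak in that line and below the threshold.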
